A study of Mus musculus with 60 samples.

Results

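Expression of 54 protein-coding genes of the Wnt pathway was followed in the dorsal and ventral dentate gyrus (DG) among the 46480 genes of the count tables, 21534 of which are protein-coding. The genes were chosen by symbol and comprise 19 Wnt ligands, 10 Frizzled receptors, the 2 co-receptors, 3 Lgr receptors, 4 R-spondins, 4 Dkk genes, 6 genes of the Sfrp, Frzb and Wif1 group, and 6 effectors (Axin1, Axin2, Tcf7, Tcf7l1, Tcf7l2 and Lef1).

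Wnt proteins are secreted, lipid-modified ligands that bind Frizzled (Fzd) receptors. With the co-receptors Lrp5 and Lrp6 they stop the destruction of β-catenin, which then joins transcription factors of the Tcf/Lef group in the nucleus. Secreted antagonists bind either the ligand (Sfrp proteins, Frzb and Wif1) or the co-receptor (Dkk1, Dkk2 and Dkk4, but not Dkk3). R-spondins acting through Lgr receptors, by contrast, keep Frizzled receptors at the cell surface. In the adult DG this pathway is known for its part in the renewal of neural stem cells and the birth of granule neurons.

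RNA was sequenced from whole tissue punched from the dorsal DG and the ventral DG of male C57BL6J mice aged 80 days. From weaning on day 22, the mice had lived for 8 weeks either in standard housing (SH, 3 mice per cage) or in an enriched environment (EE, 12 mice in a larger cage with running wheels and other objects). The labels name no genetic change and no drug in any group. Each sample was a pool of tissue from several mice, with the dorsal and the ventral sample of a pool taken from the same animals. Of 5 samples in each of 4 groups, SH replicate 3 was left out in both regions because Xist, an RNA made by female cells, was at 34.3 CPM (counts scaled by library size) in its dorsal and 11.9 in its ventral sample, against at most 0.652 in the other 18. This left 9 pools (4 SH and 5 EE) and 18 samples. The samples held between 22919364 and 28301861 fragments counted on genes, and CPM values are relative to these totals multiplied by each sample's TMM factor, which corrects for differences in library composition. No pair of samples within a group held identical counts.

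The dorsal and the ventral tissue differed in their markers of other cell types as well, and none of these lists was free of counts in either region. Granule cell markers (Prox1, Dsp, C1ql2 and others), the main neurons of the labelled tissue, summed to between 1223 and 1492 CPM in dorsal samples and to between 616 and 895 CPM in ventral samples, and 6 of the 7 were called higher in dorsal DG. All 12 choroid plexus markers were called higher in ventral DG, with sums of 147 to 438 CPM in dorsal samples and 651 to 2209 CPM in ventral samples. Of the 12 thalamus and habenula markers, 8 were called higher in dorsal DG, with sums of 254 to 380 CPM against 189 to 228 CPM, and Pou4f1 of that list was at 0 in some ventral samples. Of the 8 meningeal fibroblast markers, 4 were called higher in ventral DG (55.9 to 83.0 CPM in dorsal and 81.2 to 115 CPM in ventral samples), as were 2 of 5 mossy cell markers (Calb2 and Gal), 3 of 5 interneuron markers and 2 of 6 astrocyte markers. Of 7 markers of CA pyramidal neurons, 3 were called higher in dorsal DG and 4 in ventral DG. Called higher in ventral DG were also 1 of 8 endothelial and mural, 1 of 3 OPC (oligodendrocyte precursor) and 1 of 5 microglia markers. Of the 4 Cajal-Retzius markers 1 was called higher in dorsal DG, and none of the 6 oligodendrocyte markers was called. Over all tested genes, 15.9% were called higher in dorsal DG and 16.8% in ventral DG, so the shorter counts lie near these shares. The part of these differences in the results on the Wnt pathway was not tested. In pooled tissue, fewer cells of a type and less RNA per cell cannot be told apart.

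Sequences from directly before the start of 3 members are given because Axin2 is the best known transcriptional target of β-catenin and because Axin2 and the ligands Wnt3 and Wnt9a were all higher in dorsal DG. They were taken from the RefSeq promoter windows (GRCm38.p6) and cut where the annotated gene begins. Axin2 lies at chr11:108920099-108920348, Wnt3 at chr11:103773925-103774149 and Wnt9a at chr11:59306680-59306927, all on the + strand, and capitals mark CpG dinucleotides, the sites of most DNA methylation.
Axin2: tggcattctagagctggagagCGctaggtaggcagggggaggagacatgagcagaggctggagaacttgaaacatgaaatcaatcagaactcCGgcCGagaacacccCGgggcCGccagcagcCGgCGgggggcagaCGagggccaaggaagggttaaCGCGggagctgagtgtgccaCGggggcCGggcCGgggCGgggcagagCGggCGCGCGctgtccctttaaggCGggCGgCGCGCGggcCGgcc
Wnt3: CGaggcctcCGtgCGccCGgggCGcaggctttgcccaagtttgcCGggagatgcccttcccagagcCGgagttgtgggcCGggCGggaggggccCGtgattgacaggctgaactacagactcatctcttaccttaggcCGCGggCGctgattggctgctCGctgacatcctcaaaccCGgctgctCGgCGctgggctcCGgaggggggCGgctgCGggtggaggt
Wnt9a: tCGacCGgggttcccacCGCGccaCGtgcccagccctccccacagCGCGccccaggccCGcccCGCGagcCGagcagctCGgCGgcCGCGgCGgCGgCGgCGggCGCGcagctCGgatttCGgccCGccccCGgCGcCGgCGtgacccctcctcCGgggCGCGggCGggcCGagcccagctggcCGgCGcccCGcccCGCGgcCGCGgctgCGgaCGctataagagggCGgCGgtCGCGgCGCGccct
These stretches held 24, 20 and 48 CpG dinucleotides, against a median of 6 in the 250-base windows of all 32817 RefSeq promoters. The core words bound by Tcf/Lef factors (CTTTG with AA, AT, TA or TT after it, on either strand) occurred in 14.8% of all windows. Of the 44 windows found for 36 members, 6 held such a word, in Dkk1, Fzd7 and Wnt11 and, at starts well inside the gene, in Lef1, Tcf7l2 and Wnt5b. No such word lay in the windows of Axin2, Wnt3 or Wnt9a, and bases outside the windows were not searched.

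Expression was first compared between members per length, as FPKM (fragments scaled by transcript length and sequencing depth). Of the 46 members with enough counts to be tested, 26 had a mean above 1 FPKM over the 18 samples. Dkk3, a divergent member of the Dkk group, stood far above the rest at 75.1 FPKM. The next levels were those of the ligand Wnt7b (16.1), the receptor Fzd3 (12.9), the antagonist Frzb (11.7), Lgr4 (11.5), the feedback inhibitor Axin2 (11), Lrp6 (10.2) and the scaffold Axin1 (8.70). Of the 54 members, 8 did not pass the filter of more than 10 counts in at least 2 samples (Wnt1, Wnt2b, Wnt3a, Wnt8a, Wnt11, Dkk1, Dkk4 and Rspo4). Wnt11, the most abundant of them, had 127 counts and Dkk4 had 1 count over all 18 samples. Wnt3a, the ligand most often used to start the pathway in culture, had 9 counts in all. At this depth the levels of these 8 genes could not be compared between groups.

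Within the Wnt ligands, Wnt7b supplied 46.3% ± 2.1 (SD, n = 4) of the summed FPKM in the dorsal samples under SH and 45.7% ± 2.3 (n = 5) under EE, and its share in the ventral samples was 53.2% ± 2.6 (n = 4) under SH and 53.1% ± 3.3 (n = 5) under EE. Wnt7a, its closest relative in the list, came second with means between 16.7% and 20.5%. The summed ligand level itself lay close together in the groups, at 30.7 ± 1.0 FPKM in dorsal SH, 31.9 ± 1.1 in dorsal EE, 33.6 ± 1.6 in ventral SH and 33.4 ± 0.9 in ventral EE. Fzd3, known for axon guidance, made up between 45.7% and 49.1% of the summed Frizzled FPKM in each group. The sum of the Sfrp, Frzb and Wif1 group, by contrast, was 10.5 ± 0.4 FPKM in dorsal SH and 19.3 ± 1.9 in ventral SH, and no dorsal sample reached a ventral one. Frzb alone accounted for 78.6% to 88.5% of it in the group means.

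**Figure D1:**
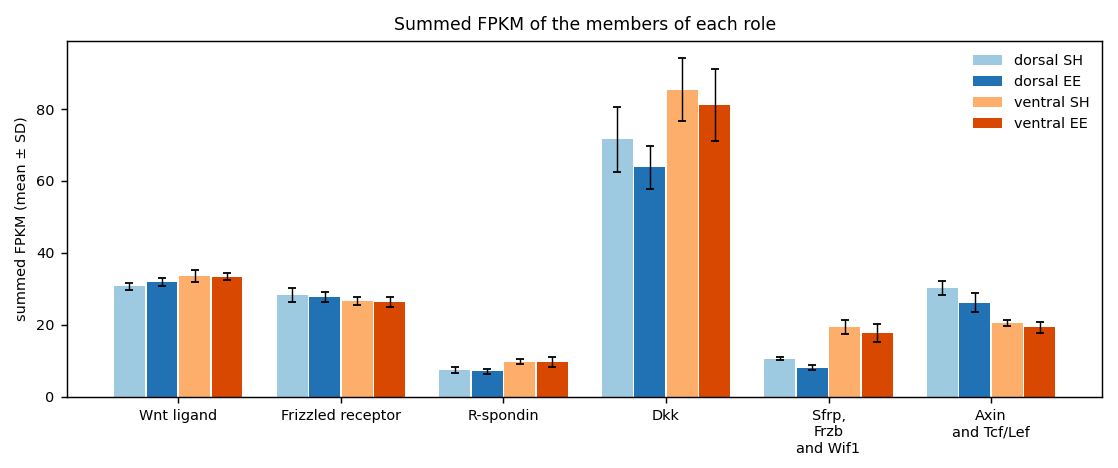
Summed FPKM of the members of each role (vertical axis, linear from 0) in the 4 groups; bars are means and error bars SD over 4 SH or 5 EE samples. The sums of ligands and of Frizzled receptors lay close together in the 4 groups, whereas the Sfrp, Frzb and Wif1 group was higher in ventral DG. The mean R-spondin and Dkk sums were also higher in ventral DG (9.71 against 7.42 and 85.4 against 71.6 FPKM in SH). The summed FPKM of the Axin and Tcf/Lef group was lower in ventral DG (20.5 against 30.2 FPKM in SH, 19.3 against 26.05 in EE). Axin2 made up 50.2% of that sum in dorsal SH and 41.9% in ventral SH, and its regions lay further apart in FPKM than in counts. In dorsal DG, Axin1 was at 10.5 FPKM in SH and 8.59 in EE, but at 31.8 and 32.1 CPM. On counts, 2 of the 6 members of that group were called, Axin2 and Lef1.

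Differences between the poles were then tested on counts with edgeR's quasi-likelihood test over all 17040 genes that passed the filter, as the mean of the dorsal-ventral difference in SH and in EE. A gene was called at a false discovery rate (FDR, Benjamini-Hochberg) below 0.05 and a fold change above 20%. Of the 46 tested members, 22 were called (47.8%), 12 higher in dorsal DG and 10 higher in ventral DG. Over all tested genes 32.7% were called, 15.9% higher in dorsal DG and 16.8% higher in ventral DG. Without regard to sign, the median log2 fold change was 0.28 for the members and 0.19 for all tested genes. All 22 called members had the same sign in SH and in EE, and 15 had it in each of the 9 pools. The call rests on the mean of both housings over these same pools, so such agreement is largely set by the selection. In 14 of the 46, 7 of them higher in each direction, the 9 dorsal samples did not overlap with the 9 ventral samples (18.9% of all tested genes showed no overlap). Within SH alone 21 members were called (28.3% of all genes) and within EE alone 19 (29.8% of all genes), and the 16 called in both had the same direction.

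**Figure D2:**
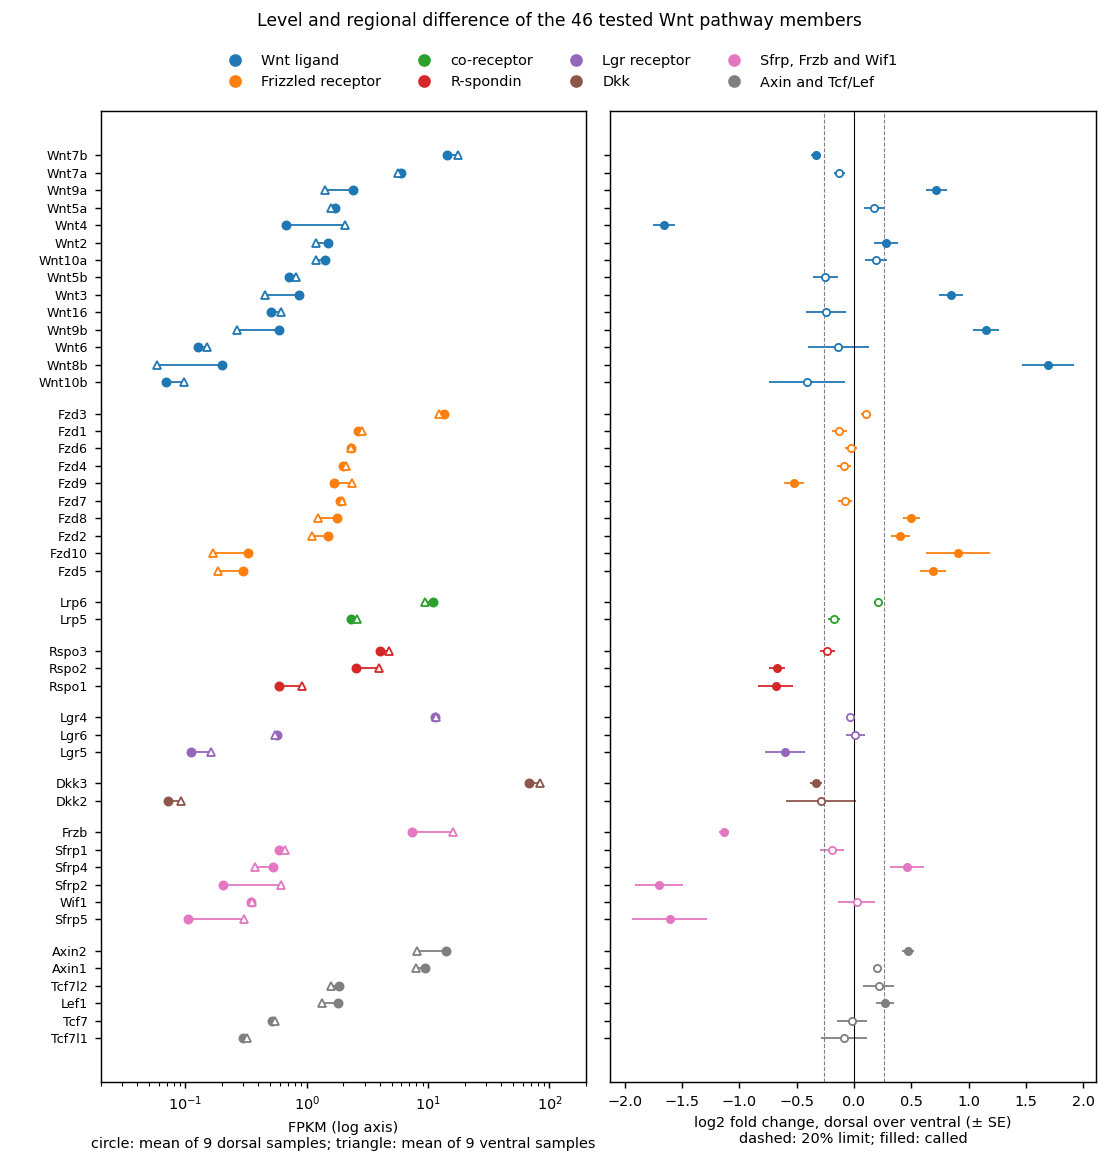
The 46 tested members by role, ordered by level. Left, mean FPKM on a log axis for 9 dorsal (circles) and 9 ventral samples (triangles); right, log2 fold change of counts, dorsal over ventral, ± SE, with called members filled and the 20% limit dashed. Values ran from 1.69 for Wnt8b, the furthest to the dorsal side, to -1.70 for Sfrp2, the furthest to the ventral side.

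Among the ligands, Wnt3, Wnt9a, Wnt9b, Wnt8b and Wnt2 were higher in dorsal DG, and Wnt4 and Wnt7b were higher in ventral DG. Wnt3, a ligand known to drive the birth of hippocampal neurons, was at 2.90, 3.17, 2.56 and 2.53 CPM in dorsal SH and at 3.57, 3.31, 3.25, 2.37 and 3.29 CPM in dorsal EE. In the ventral samples it was at 1.66, 1.2, 1.30 and 2.01 CPM (SH) and at 1.75, 1.68, 2.04, 1.85 and 1.48 CPM (EE). The lowest dorsal sample thus lay above the highest ventral one, with a log2 fold change of 0.85 ± 0.11 (SE; edgeR FDR = 5.3e-07), and the values within SH (0.85) and within EE (0.85) were alike.

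Wnt9a, a close relative of Wnt9b, was at 10.8, 11.8, 8.63 and 8.23 CPM in dorsal SH and at 7.88, 8.53, 7.85, 8.16 and 6.50 CPM in dorsal EE. The ventral samples were at 6.22, 6.24, 4.98 and 4.57 CPM (SH) and at 5.09, 6.02, 5.45, 5.12 and 4.0 CPM (EE). No ventral sample reached the lowest dorsal one, and the log2 fold change was 0.72 ± 0.09 (edgeR FDR = 3.8e-07). Its relative Wnt9b ran from 1.88 to 3.58 CPM in dorsal samples and from 0.954 to 1.61 CPM in ventral samples (log2 fold change 1.15 ± 0.11). Wnt8b, which is expressed in the developing hippocampal field, ran from 0.367 to 1.29 CPM in dorsal samples and from 0.122 to 0.338 CPM in ventral samples (1.69 ± 0.23), a fold change that rests on few counts. Wnt2 overlapped widely (2.4 to 4.61 CPM against 2.37 to 4.08 CPM) and lay just inside the limits, with a log2 fold change of 0.28 ± 0.11 and an edgeR FDR of 0.030. It lost its call in 5 of the 9 fits without a pool, where its FDR reached 0.12.

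Wnt9b and Wnt3, both higher in dorsal DG, are neighbours in the genome. On chromosome 11 of GRCm38, Wnt9b (103727364 to 103749821, - strand) and Wnt3 (103774150 to 103817957, + strand) lie head to head with 24328 bases between them. Wnt9a (59306928 to 59333552, + strand) lies in the same arrangement 16175 bases from Wnt3a, which was nearly without counts.

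Wnt4, known for its signals in kidney and gonad development, showed the clearest difference of a ligand towards the ventral pole. It was at 3.44, 3.21, 2.52 and 1.86 CPM in dorsal SH and at 4.13, 4.43, 3.17, 2.77 and 3.11 CPM in dorsal EE. Its ventral values were 8.62, 11.6, 9.20 and 9.32 CPM under SH and 9.78, 9.37, 11.1, 9.65 and 10.0 CPM under EE. Every ventral sample was well above every dorsal sample, a 3.15-fold difference (log2 fold change -1.66 ± 0.10; edgeR FDR = 3.2e-12). The ventral samples with the lowest summed choroid plexus markers (651 CPM in SH replicate 1 and 655 CPM in EE replicate 2) had 8.62 and 9.37 CPM of Wnt4, and the one with the highest (2209 CPM, EE replicate 3) had 11.1 CPM. The highest Wnt4 level (11.6 CPM, SH replicate 2) came with 895 CPM of these markers, and SH replicate 5, with 1796 CPM, had 9.32 CPM of Wnt4. The part of choroid plexus tissue in the regional difference of Wnt4 was not tested.

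Wnt7b, a ligand that promotes dendrite growth, was at 52.3, 55, 53.6 and 51.1 CPM in dorsal SH and at 50.2, 61.4, 54.9, 61.0 and 53.8 CPM in dorsal EE. In the ventral samples it was at 69.0, 69.2, 66.7 and 66.1 CPM under SH and 71.2, 76.6, 61.6, 70.7 and 69.1 CPM under EE. The regions did not overlap, but dorsal EE replicate 2 and ventral EE replicate 3 nearly met. Its log2 fold change was -0.33 ± 0.04 (edgeR FDR = 5.3e-07). Wnt7a passed the FDR but not the fold limit, at -0.13 ± 0.05 on the count scale. The ligands Wnt5a, Wnt5b, Wnt6, Wnt10a, Wnt10b and Wnt16 were not called, with log2 fold changes between -0.41 (Wnt10b) and 0.19 (Wnt10a). Wnt5b was higher in the ventral sample of all 9 pools but missed the threshold (-0.25 ± 0.11, edgeR FDR = 0.052). The mean FPKM of Wnt7a leaned the other way (5.96 in dorsal and 5.65 in ventral samples), and regional calls were made on counts only.

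Of the Frizzled receptors, Fzd2, Fzd5, Fzd8 and Fzd10 were higher in dorsal DG and Fzd9 was higher in ventral DG, while Fzd1, Fzd3, Fzd4, Fzd6 and Fzd7 were not called. Fzd8 was at 6.99, 7.90, 6.75 and 6.85 CPM in dorsal SH and at 5.93, 7.83, 6.50, 7.38 and 6.99 CPM in dorsal EE. Ventral levels were 4.98, 4.40, 4.98 and 5.55 CPM under SH and 4.54, 5.07, 4.51, 6.26 and 4.41 CPM under EE. It was higher in the dorsal sample of all 9 pools, although ventral EE replicate 4 (6.26 CPM) lay above dorsal EE replicate 1 (5.93 CPM), and its log2 fold change was 0.50 ± 0.07 (edgeR FDR = 5.7e-06).

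Fzd9, a receptor of neural progenitors, was at 3.84, 4.85, 3.67 and 3.46 CPM in dorsal SH and at 4.01, 3.85, 4.80, 4.85 and 3.99 CPM in dorsal EE. In ventral DG it stood at 6.43, 6.76, 5.11 and 5.22 CPM under SH and 5.32, 7.06, 5.45, 6.30 and 5.71 CPM under EE. The regions did not overlap, with a log2 fold change of -0.52 ± 0.08 (edgeR FDR = 1.4e-05). Fzd10, Fzd5 and Fzd2 had log2 fold changes of 0.91 ± 0.28, 0.69 ± 0.11 and 0.41 ± 0.09, and in each the dorsal and the ventral samples overlapped. Fzd10 had its highest value, 2.69 CPM, in dorsal EE replicate 2, and lay between 0.489 and 1.29 CPM in the other dorsal samples.

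The co-receptors moved apart by less than the fold limit. Lrp6, which was higher in the dorsal sample of all 9 pools, had a log2 fold change of 0.21 ± 0.03, and Lrp5 had one of -0.18 ± 0.05, both with an edgeR FDR below the threshold. The R-spondins, which strengthen the response to Wnt ligands, were called towards the ventral pole for 2 of the 3 tested. Rspo2 was at 10.1, 8.84, 9.31 and 11.1 CPM in dorsal SH and at 10.0, 8.62, 9.88, 9.54 and 11.7 CPM in dorsal EE. Its ventral values were 15.5, 15.9, 16.0 and 15.9 CPM under SH and 15.5, 12.7, 15.2, 16.3 and 19.7 CPM under EE. The regions did not overlap (log2 fold change -0.67 ± 0.07; edgeR FDR = 3.1e-08). Rspo1 was called as well (-0.68 ± 0.15), with overlapping samples, and Rspo3, the most abundant R-spondin at 4.40 FPKM, passed the FDR but not the fold limit (-0.23 ± 0.07). Of the receptors for R-spondins, Lgr4 was nearly level in all 18 samples, between 62.8 and 69.7 CPM (log2 fold change -0.03 ± 0.03), and Lgr6 was not called (0.01 ± 0.08). Lgr5, a marker of stem cells in several tissues, was low but called higher in ventral DG (0.247 to 0.737 CPM in dorsal and 0.634 to 1.13 CPM in ventral samples; -0.60 ± 0.17).

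Dkk3 was high in every sample and higher in ventral DG. It was at 268, 230, 284 and 286 CPM in dorsal SH and at 275, 237, 233, 228 and 260 CPM in dorsal EE. The ventral samples were at 298, 306, 349 and 351 CPM under SH and 308, 288, 365, 312 and 322 CPM under EE. The lowest ventral sample (288 CPM) lay just above the highest dorsal one (286 CPM), and the log2 fold change was -0.33 ± 0.05 (edgeR FDR = 2.0e-05). The other members of the group were rare, with Dkk2 at 0.0822 FPKM and Dkk1 and Dkk4 nearly without counts.

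Frzb, a soluble decoy for Wnt ligands, had the smallest standard error among the members that differed by more than 2-fold. It was at 24.3, 22.8, 23.7 and 23.5 CPM in dorsal SH and at 17.8, 16.7, 17.2, 18.2 and 19.3 CPM in dorsal EE. Ventral levels were 45.6, 47.6, 47.0 and 49.8 CPM under SH and, under EE, 41.4, 37, 47.6, 46.1 and 42.6 CPM. Every ventral sample was above every dorsal sample, 2.20-fold on average (log2 fold change -1.14 ± 0.04; edgeR FDR = 1.8e-15). Sfrp2 (log2 fold change -1.70 ± 0.21) and Sfrp5 (-1.61 ± 0.33) were also higher in ventral DG but low, with at most 1.67 and 0.862 CPM. Sfrp5 reached 0.704 CPM in dorsal EE replicate 2 and was between 0.0372 and 0.287 CPM in the other dorsal samples. Sfrp4 went the other way (0.46 ± 0.15) and lost its call without SH replicate 1 (0.38, edgeR FDR = 0.051), while Sfrp1 and Wif1 were not called.

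Among the effectors, Axin2, a target of β-catenin that in turn restrains it, was higher in dorsal DG. It was at 37.5, 41.6, 36.0 and 36.5 CPM in dorsal SH and at 39.6, 44.2, 34.4, 33.1 and 34.1 CPM in dorsal EE. In ventral DG it stood at 26.8, 27.7, 26.0 and 27.5 CPM under SH and 28.2, 29.6, 24, 25.4 and 27.9 CPM under EE. The regions did not overlap, and the log2 fold change was 0.47 ± 0.05 (edgeR FDR = 1.2e-07). On the FPKM scale its regional means were further apart, at 14 ± 2.3 (SD, n = 9) and 8.09 ± 0.78, and the regional calls were not made on that scale. Axin1, its relative in the β-catenin destruction complex, was 0.20 ± 0.04 higher on the log2 scale, below the fold limit, and its samples did not overlap either.

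Lef1, which marks Wnt-responsive cells of the developing hippocampus, was at 7.35, 5.84, 4.40 and 5.32 CPM in dorsal SH and at 6.04, 6.50, 5.16, 5.10 and 5.38 CPM in dorsal EE. Its ventral values were 4.52, 4.58, 4.09 and 4.46 CPM under SH and 4.78, 4.84, 5.45, 5.20 and 4.89 CPM under EE. The regions overlapped, and the log2 fold change of 0.27 ± 0.08 (edgeR FDR = 0.0059) was just above the limit of 0.26. It fell below that limit without SH replicate 1 (0.21), EE replicate 1 (0.25) or EE replicate 2 (0.24). Within SH the value was 0.38 ± 0.12 and within EE 0.16 ± 0.11, and the difference between them was not called (FDR = 1.00). Tcf7l2, which is abundant in the thalamus, was at 11.2 CPM in dorsal SH replicate 1, the sample with the highest Lef1 and the highest summed thalamus and habenula markers (380 CPM), and at 4.44 to 8.99 CPM in the other dorsal samples. It was not called (0.22 ± 0.14), nor were Tcf7 (-0.02 ± 0.13) and Tcf7l1 (-0.09 ± 0.20), and the part of adjoining tissue in Lef1 or Tcf7l2 was not tested.

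**Figure D3:**
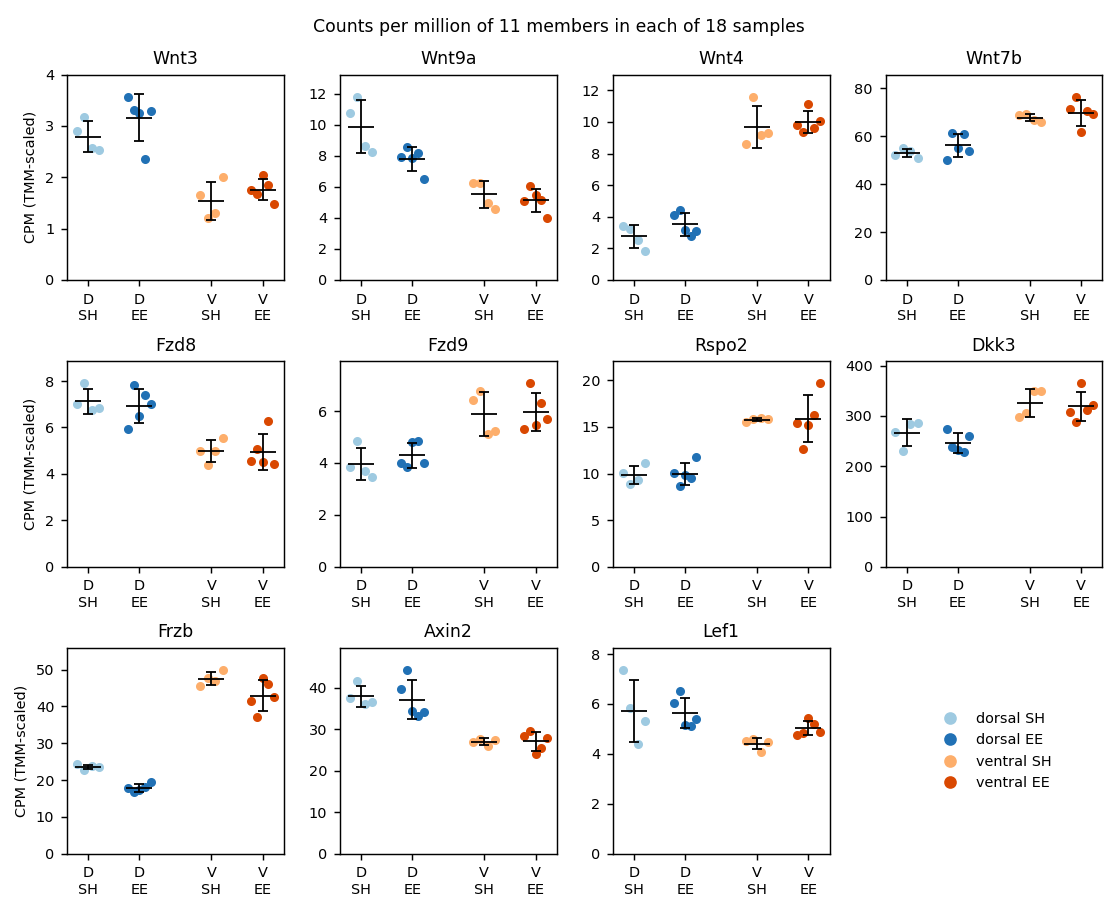
TMM-scaled CPM of 11 members (vertical axes, linear from 0) in each of 18 samples of dorsal (D) and ventral (V) DG in SH and EE; points are samples, the long dash is the group mean and bars are SD (n = 4 in SH, 5 in EE). Wnt3, Wnt9a and Axin2 separated with dorsal samples on top, Wnt4, Wnt7b, Fzd9, Rspo2, Dkk3 and Frzb with ventral samples on top, and Fzd8 and Lef1 overlapped.

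Housing was compared within each region with the same model, and a member was called at an FDR below 0.05 and a change of at least 20%. In dorsal DG, 1 of the 46 members was called (0.634% of all tested genes). This was Frzb, which was lower in EE by 0.40 ± 0.06 on the log2 scale (edgeR FDR = 0.0018), with all 5 EE samples (16.7 to 19.3 CPM) below all 4 SH samples (22.8 to 24.3 CPM). The call held in all 17 alternatives tried, with log2 fold changes between -0.43 and -0.38. None of the 12 choroid plexus markers, 8 meningeal fibroblast markers or 7 granule cell markers was called between EE and SH in dorsal DG. The choroid plexus markers had a median log2 fold change of -0.57 in EE, with values below 0 for 10 of the 12, as in Slc4a5 (-1.76 ± 0.84) and Ttr (-1.14 ± 0.62). Their sums ran from 147 to 438 CPM in dorsal SH and from 149 to 220 CPM in dorsal EE. The medians were -0.09 for the meningeal list, where Lum was at -0.37 ± 0.09 (edgeR FDR = 0.058), and -0.12 for the granule cell list. Dorsal SH replicate 1 had both the highest choroid plexus sum (438 CPM) and the highest dorsal Frzb level (24.3 CPM), while SH replicate 4, with the lowest sum (147 CPM), had 23.7 CPM of Frzb. Without SH replicate 1 the decrease of Frzb was 0.38 on the log2 scale (edgeR FDR = 0.015). A fit without 1 pool does not separate Frzb from these markers, and their part in the Frzb result was not tested.

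In ventral DG none of the 46 members was called by edgeR (0.241% of all tested genes were), nor by DESeq2, and 5 had an unadjusted p under 0.05, as did 7.58% of all tested genes. Frzb was among these, at -0.14 ± 0.06 (unadjusted p = 0.021, edgeR FDR = 0.54), with overlapping samples. The others were Fzd4 (0.24 ± 0.09), Fzd2 (0.30 ± 0.13), Fzd7 (-0.21 ± 0.09) and Rspo1 (-0.49 ± 0.20), the lowest FDR among them being 0.41 for Fzd4. In dorsal DG, 5 members had an unadjusted p under 0.05 (8.81% of all tested genes did), and apart from Frzb these were Wnt9a (-0.34 ± 0.12, edgeR FDR = 0.29), Wnt4 (0.35 ± 0.16), Wnt2 (0.31 ± 0.15) and Wnt10a (0.27 ± 0.13), none of which passed the correction in this model. In an alternative fit with the replicate number as a block, Wnt9a did pass (-0.35, edgeR FDR = 0.016).

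The difference between the housing effects of the regions was called for none of the members by edgeR or by DESeq2 (0.00587% of all tested genes, 1 gene). For Frzb that difference was -0.26 ± 0.09 on the log2 scale (unadjusted p = 0.0071, edgeR FDR = 1.00), so that its decrease in EE was not shown to be confined to dorsal DG. For this difference 3 members had an unadjusted p under 0.05 (Frzb, Fzd4 and Sfrp1), as did 3.25% of all tested genes. Axin2 and Lef1 were not called between the housings, with log2 fold changes in EE of -0.03 ± 0.07 and -0.03 ± 0.11 in dorsal DG.

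**Figure D4:**
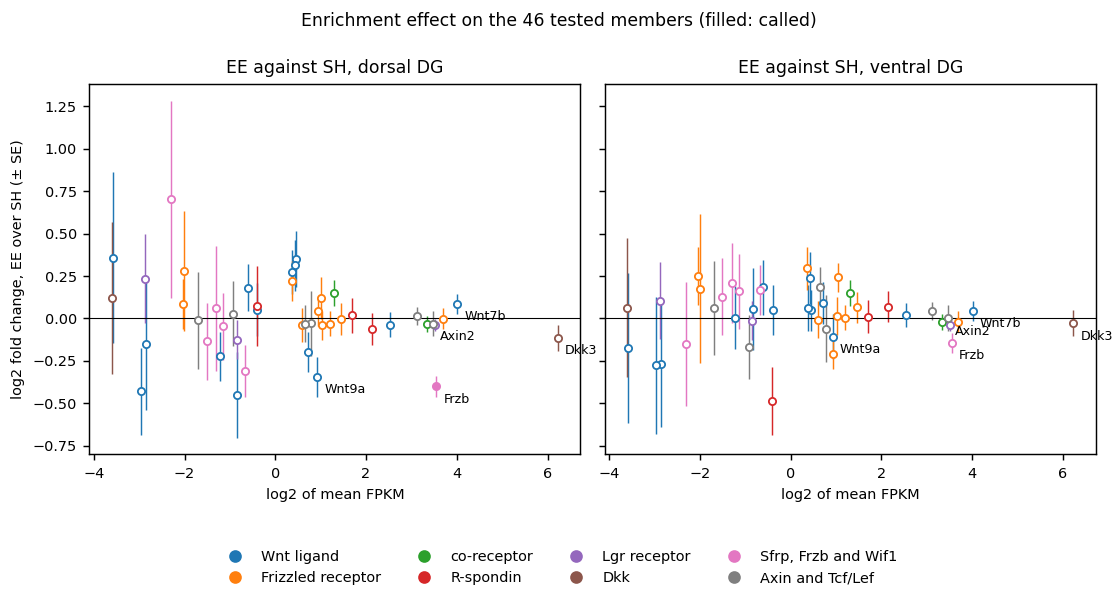
Log2 fold change of counts, EE over SH (vertical axis, ± SE), against the log2 of mean FPKM (horizontal axis) for the 46 tested members in dorsal DG (left) and ventral DG (right), coloured by role. The single filled point is Frzb at -0.40 in dorsal DG, and the points spread further from 0 where FPKM was low.

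The remaining genes of the pathway were followed in 5 lists, to be read against the 15.9% of all tested genes called higher in dorsal DG and the 16.8% called higher in ventral DG. Of 22 tested genes of Wnt secretion and the cell surface, 3 were higher in dorsal DG, the glypican Gpc4 (log2 fold change 0.70) and the Dkk receptors Kremen1 (0.29) and Kremen2 (0.51), the last at 0.139 FPKM. Another 4 were higher in ventral DG, namely Sostdc1 (-1.23), Ror2 (-0.84), Gpc3 (-0.51) and Tspan12 (-0.43). Of 28 genes of the intracellular relay, the dishevelled Dvl2 (0.32), the dishevelled partner Dact1 (0.63) and the tankyrase Tnks (0.30), which degrades Axin, were higher in dorsal DG. The dishevelled inhibitor Nkd2, which averaged 3.4 CPM in the dorsal and 17.1 CPM in the ventral samples, was the furthest to the ventral side of all the list genes (-2.32 ± 0.08), and Dact3 (-0.43) followed.

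Of 19 nuclear cofactors, 5 were higher in dorsal DG, with the co-repressor Tle1 (0.56) and the acetyltransferases Crebbp (0.41) and Ep300 (0.35) ahead of Chd8 (0.30) and Pygo1 (0.27). Without SH replicate 1 the count of 5 became 3. Tle3 (-0.31) and Ctbp2 (-0.28) were higher in ventral DG. Of 24 genes of the planar polarity and calcium branch, 6 were higher in dorsal DG and none in ventral DG, led by the kinase subunit Camk2b (0.54), Prickle1 (0.50) and Vangl2 (0.47). The median of that list was 0.12, against -0.005 for all tested genes. The medians were 0.14 for the nuclear cofactors, 0.11 for the intracellular relay and 0.04 for secretion and the cell surface. The list of transcriptional targets holds 5 members (Axin2, Lef1, Lgr5, Tcf7 and Dkk1, the last not tested). Of its 15 tested genes, 4 were called in each direction. These were Axin2, Neurod1 (0.28), Myc (0.27) and Lef1 towards the dorsal pole, and the cyclin Ccnd1 (-0.69), Neurog2 (-0.71), Cd44 (-0.42) and Lgr5 towards the ventral pole. The 4 towards the dorsal pole became 2 without SH replicate 1, EE replicate 1 or EE replicate 3. Established targets of β-catenin were found on either side, and the list had a median of 0.002.

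Of the 102 different genes tested in these lists, 2 were called between the housings in dorsal DG (0.634% of all tested genes were), both of them at the cell surface and both lower in EE. Gpc3 was lower by 0.98 on the log2 scale (edgeR FDR = 4.9e-06) and the Wnt5a receptor Ror1, named after its values were seen, by 0.52 (edgeR FDR = 0.041). In ventral DG no list gene was called by edgeR, where Gpc3 had a log2 fold change of -0.41 (FDR = 0.0504) and Ror1 one of -0.37 (FDR = 0.35).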

How the data were processed

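The authors trimmed the paired reads with Trim Galore 0.4.0 and aligned them to the mouse genome mm10 with STAR 2.5.1b, with Gencode vM7 as annotation, and RSEM 1.2.30 made a second table per sample; the versions are per the labels' processing notes. The authors deposited counts per gene for each strand setting, of which column 4 (reverse-stranded) was used, and expected counts, TPM and FPKM in the RSEM table. The 4 rows of each count table that name no gene held 32.58% to 40.89% of the fragments and were left out. Genes were named from Gencode on GRCm38 (45968 of 46480 matched). In the deposited TPM values 2 short noncoding genes held 39.4% to 55.3% of the total, which moves between samples, so levels were compared in FPKM and TPM served only as a limit on low genes.

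Counts were fitted in edgeR 4.0.16 (R 4.3.3) with TMM factors, 4 group means and quasi-likelihood tests, on genes whose counts exceeded 10 in 2 or more of the 18 samples. SE was the log2 fold change divided by the square root of F. FDR was adjusted over all 17040 genes tested. The fits were tested on simulated counts with known changes. Expected counts were rounded for the fit that used them. DESeq2 1.42.0 was an alternative.

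The dorsal and ventral sample of a replicate number come from the same mice by the study's description. Their deviations from group means correlated at -0.084 to 0.189 in 9 pairs. The members and lists were chosen with earlier results of these data known. Values in every sample are given for the called members with the largest changes, up to 8 in each direction with mean TPM over 1 in a group, for Wnt3, Wnt9a, Dkk3, Lef1 and Axin2, and for members called between housings. In each list, up to 3 called genes per direction with mean TPM over 1 were named by rule, and the other called genes were named after their values were seen. The p-values measure the spread between pools within a group. The main fit did not pair the dorsal and the ventral sample of a pool. The 40 methylation samples of the series were not analysed here.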

Additional observations from a re-analysis of the deposited data

Results flagged for a closer look

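Wnt3 in dorsal EE replicate 4 was at 2.37 CPM, apart from the other 4 dorsal EE samples at 3.25 to 3.57 CPM. It was the only sample found to stand apart in the 44 groups checked (11 members in 4 groups each), where chance alone sets apart a sample in about 1 of 20 groups. The regional difference of Wnt3 was 0.90 on the log2 scale without that pool, against 0.85 with it, and it was called in each fit without a pool.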

How the results depend on the processing

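The 12 dorsal-higher and 10 ventral-higher members were within 1.5 times of these counts under the likelihood ratio test, DESeq2, RLE factors, other count filters, all 20 samples, expected counts, the test of both housings together and no fold limit. Fits without a pool gave 10 to 12 and 10 to 11. With a further limit of TPM over 1 in at least 3 samples, 4 members were higher in dorsal DG and 6 in ventral DG. That limit takes out low genes, among them Wnt3, Wnt8b, Wnt9b, Fzd5, Fzd10, Sfrp2 and Sfrp5. No share over all genes under that limit is set beside these counts. They therefore do not show whether the larger share called among the members holds there. None of the 22 members called between regions, nor Frzb in EE, changed direction. In 17 alternative fits, which did not include the limit on TPM, 20 of 23 results on single members kept their call wherever the gene was tested. Wnt8b was tested in 16 of these fits. Lef1, Wnt2 and Sfrp4 lost their call in fits without a pool. With the pool as a replicate block for the paired dorsal and ventral samples, 12 and 10 members were called, and no regional count moved by more than 1.5 times. The labels name nothing but the replicate number that EE and SH samples share, so a common batch or litter cannot be told from them. With these replicate numbers as a block, 2 members in place of 1 were called in dorsal DG. They were Wnt9a (log2 fold change -0.35, edgeR FDR = 0.016) and Frzb, and all genes called went from 108 to 172. Deviations of EE and SH samples of one number correlated at 0.0815 to 0.175 in 8 pairs, 7 of them over 0.1. In ventral DG the count was 0 and for the difference between regions 0 in each alternative, while all genes called in ventral DG ran from 18 to 87.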
